A study of Homo sapiens with 5 samples.

Results

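The expression of 10 genes around the Hippo pathway was examined in cells carrying an shRNA against BPTF, the largest subunit of the NURF chromatin-remodelling complex. They are the CCN genes CTGF, CYR61 and NOV (now also named CCN2, CCN1 and CCN3), the target gene ANKRD1, the genes YAP1 and WWTR1 for the coactivators YAP and TAZ, and TEAD1, TEAD2, TEAD3 and TEAD4. They were chosen by name and matched to Ensembl identifiers through GENCODE 29. All 10 were found among the 31029 genes listed for both cell lines, and all 10 passed the filter on low counts. ANKRD1 passed through one line alone, so that a difference between the lines was bound to appear for it.

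YAP and TAZ carry no DNA-binding domain of their own and act on genes through the TEAD transcription factors. When the Hippo kinases (MST and then LATS) are active, YAP and TAZ are phosphorylated and held out of the nucleus, so that target genes such as CTGF, CYR61 and ANKRD1 are transcribed less. The CCN proteins are secreted matrix-associated factors that bind integrins, and NOV is known in skin as a factor that melanocytes secrete in contact with keratinocytes.

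RNA-seq was carried out on 2 libraries of 501Mel shBPTF and 3 libraries of Hermes 3A shBPTF. 501Mel is a human melanoma line and Hermes 3A is an immortalised line of human melanocytes. Both groups carried lentiviral shBPTF, and the methods give 5 days of puromycin selection at 3 µg/ml unless another time is named. Libraries without shBPTF were not analysed here, so that no value below is an effect of the knockdown, and each comparison is between the lines. The Hermes 3A medium also held TPA, cholera toxin, stem cell factor and endothelin, and line and medium cannot be told apart. The labels name neither the shRNA sequence nor separate cultures for the replicates, so that the p-values measure only the spread between these libraries, which may be technical. These are bulk libraries, in which fewer cells expressing a gene and less RNA per cell cannot be told apart.

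Library totals lay between 30073071 and 43032311 counts, at which 3 counts correspond to 0.0697 to 0.0998 CPM (a count as a share of the library total, scaled in the usual way). BPTF itself had 2832 and 2189 counts in 501Mel and 1906, 2110 and 1628 in Hermes 3A, and did not differ between the lines past the threshold (log2 difference 0.23, edgeR adjusted p = 0.208). Hermes 3A replicate 1 stood apart from the other two, with a chi-square per gene of 94.7 and 99.7 against them, while replicates 2 and 3 gave 21.3 against each other. The 2 libraries of 501Mel gave 74.1. All 10 melanocyte lineage markers (MITF, SOX10, PMEL and others) had at least 10 counts in every library, although DCT averaged 9.76 CPM and SLC45A2 5.89 CPM in Hermes 3A against 1184 and 913 CPM in 501Mel. Summed over the list, these markers came to 13733 and 21353 CPM in 501Mel and to 32288 to 33259 CPM in Hermes 3A. The highest in both lines were PMEL (mean 6669 CPM in 501Mel and 16834 CPM in Hermes 3A) and TYRP1 (6115 and 11954 CPM), which weigh most in the sums. By edgeR 2 of the 10 were called higher in 501Mel, 5 lower and 3 not called, beside 24.2% higher and 24.0% lower over all genes tested. Of 8 fibroblast markers, COL3A1, DCN and PDGFRB stayed at or under 1.21 CPM in every library, COL1A1 averaged 3.63 CPM in 501Mel and 0.680 CPM in Hermes 3A, and LUM 5.33 and 3.15 CPM. COL1A2 averaged 0.0877 CPM in 501Mel and 146 CPM in Hermes 3A, FBLN1 4.87 and 52.8 CPM, and TWIST2 0 and 2.53 CPM. Of 8 keratinocyte markers only KRT10, TP63, DSG3 and SFN were listed for both lines, and the last 3 averaged under 1 CPM in each line.

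The promoters of CTGF and ANKRD1 are shown because these are the 2 members whose called level was higher in 501Mel, and because both hold more than 1 copy of GGAATG, the core letters that TEAD proteins bind. RefSeq windows of 250 bases before to 50 after a start (GRCh38.p14) were found for 6 of the 10 members, namely CTGF, ANKRD1, YAP1, WWTR1, TEAD2 and TEAD3. Both strands were searched, as GGAATG and CATTCC. The first line gives the 250 bases before the CTGF start (chr6:131951373-131951622, minus strand), and the others give 30 bases around each ANKRD1 match (chr10:90921290-90921319 and chr10:90921198-90921227, minus strand). Capitals mark GGAATG.
CTGF, 250 bases before the start: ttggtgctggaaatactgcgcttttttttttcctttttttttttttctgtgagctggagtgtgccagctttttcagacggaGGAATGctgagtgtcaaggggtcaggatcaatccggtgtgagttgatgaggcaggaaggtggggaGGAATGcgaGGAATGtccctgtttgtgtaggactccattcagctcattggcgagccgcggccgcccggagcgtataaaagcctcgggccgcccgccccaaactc
ANKRD1, first match: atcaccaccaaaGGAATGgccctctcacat
ANKRD1, second match: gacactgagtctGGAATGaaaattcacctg

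Counted from the RefSeq start, with -1 the base just before it, the CTGF matches began at -169, -104 and -95 and the ANKRD1 matches at -220 and -128. The GENCODE 29 start of ANKRD1 lies further upstream (90921276), so that the second match falls inside that gene model. YAP1 held 1 match, at -162, and the windows of WWTR1, TEAD2 and TEAD3 held none. Of all 35116 such windows, 14.0% held at least 1 match, 1.37% at least 2 and 0.128% at least 3. These are shares of windows and not of genes, since some genes had no window and others more than 1. CTGF and ANKRD1 were picked for their call and for holding more than 1 match. Their place among the windows with at least 2 was therefore fixed by that choice. Whether matches go with the level of a gene was not tested. A match is a description of these letters and not of binding.

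The largest contrasts between the lines lay in CTGF, ANKRD1, NOV and TEAD2. CTGF and ANKRD1 were higher in 501Mel, NOV and TEAD2 were higher in Hermes 3A, and YAP1 was higher in Hermes 3A by less than 2-fold. CYR61, WWTR1, TEAD1, TEAD3 and TEAD4 did not pass the threshold. Thus 2 members were called higher in 501Mel and 3 lower at an edgeR adjusted p under 0.05, while 48.2% of the 17975 genes tested were called in either direction, 24.2% higher and 24.0% lower. Without ANKRD1, which passed the filter through 501Mel alone, 1 of 9 members was higher and 3 were lower. The median log2 difference of the members was -0.26, beside 0.02 over all genes tested. The CPM ranges of the lines did not overlap for 6 members, those called and WWTR1, beside 69.8% of all genes tested. They were apart and higher in 501Mel for 3 members, beside 37.9% of all genes, and lower for 3, beside 31.9%. With a log2 difference of at least 1 as well, 4 members were called (CTGF, ANKRD1, NOV and TEAD2), beside 34.3%. ANKRD1 is also counted in the 6 members with ranges apart, in the 3 of these that were higher and in the 4. With ANKRD1 counted, the shares of the members were thus near those of all genes. Without 501Mel replicate 1, the number of called members was 3, with 1 higher.

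**Figure D1:**
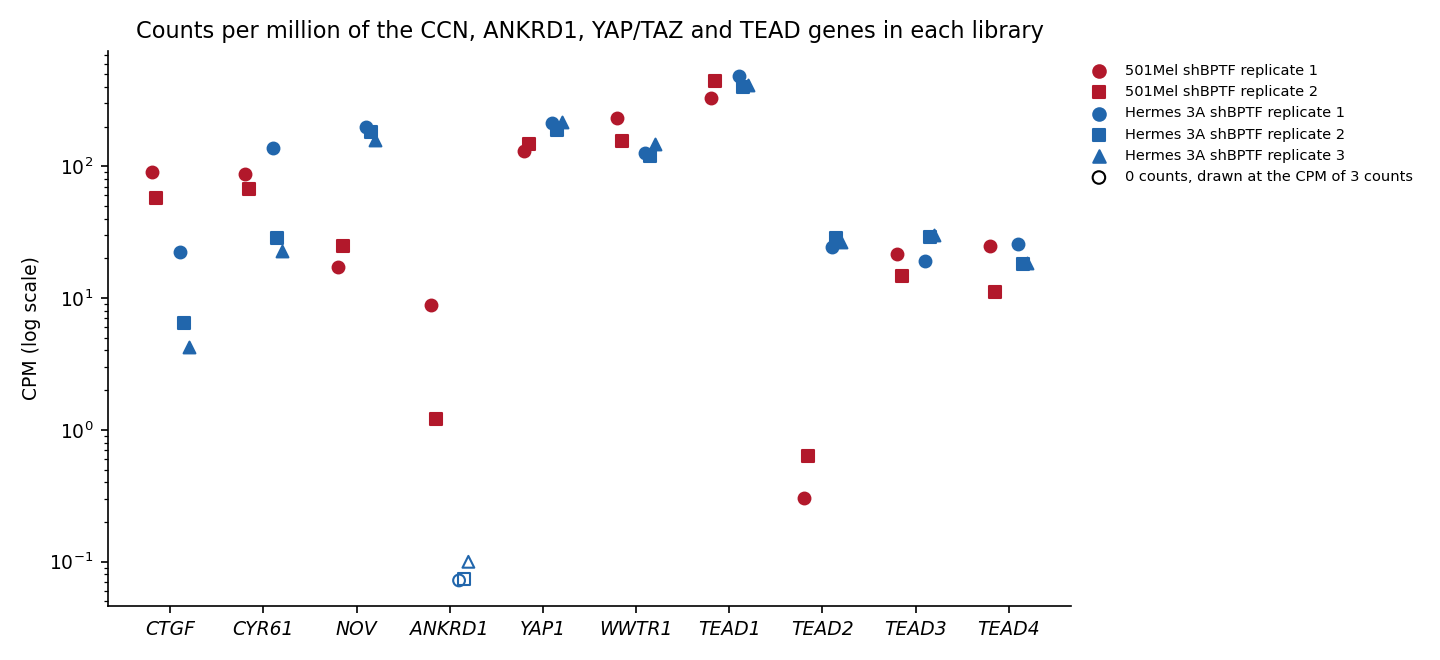
CPM of the 10 genes on a log axis, one symbol per library, red for 501Mel shBPTF and blue for Hermes 3A shBPTF, with the shape giving the replicate. Open symbols stand for 0 counts and are drawn at the CPM of 3 counts in that library. The lines are furthest apart for TEAD2 and ANKRD1, and Hermes 3A replicate 1 lies above replicates 2 and 3 for CTGF and CYR61.

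Among the coactivators, YAP1 (chr11:102110461-102233423 on GRCh38, plus strand) had 5580 counts in each of the 501Mel libraries, or 130 and 147 CPM, and 212, 187 and 216 CPM in Hermes 3A. Every 501Mel library lay below every Hermes 3A library. The mean was 139 CPM against 205 CPM, a log2 difference of -0.63 (SE 0.156, 95% interval -0.996 to -0.26, edgeR adjusted p = 0.0137). Without 501Mel replicate 1 the difference was -0.53 with an edgeR adjusted p of 0.0890.

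WWTR1, which encodes TAZ, the paralogue of YAP (chr3:149517235-149736714, minus strand), had 230 and 156 CPM in 501Mel and 126, 120 and 148 CPM in Hermes 3A. Its ranges did not overlap either, but in the other direction from YAP1. The log2 difference of 0.49 did not pass the threshold (SE 0.194, 95% interval 0.03 to 0.95, edgeR adjusted p = 0.0728). It did pass without 501Mel replicate 2 (0.72, edgeR adjusted p = 0.0298) and with scaling by the total count alone (0.56, edgeR adjusted p = 0.0452). The antisense gene WWTR1-AS1 overlaps WWTR1 exons and had 36 to 67 counts per library, beside at least 4454 for WWTR1.

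The balance of the coactivators was also compared within each library, where the library size drops out. The log2 ratio of WWTR1 to YAP1, both per kb of exon, was 0.41 and -0.34 in 501Mel and -1.16, -1.06 and -0.96 in Hermes 3A. Both 501Mel libraries were above all Hermes 3A libraries, by 1.10 on average (0.04 ± 0.53 against -1.06 ± 0.10, SD). The exact two-sided permutation test gave p = 0.2, the smallest that 2 against 3 libraries allow (0.5 after Benjamini-Hochberg adjustment over 5 measures). The size of the ratio itself depends on the gene length taken, since with the median protein-coding transcript it averaged 1.99 and 0.89 on the log2 scale, while the difference between the lines does not.

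The TEAD genes encode the DNA-binding partners of YAP and TAZ. TEAD1 (chr11:12674591-12944483, plus strand) was the most abundant per kb of the 4 in every library. It had 327 and 445 CPM in 501Mel and 484, 398 and 412 CPM in Hermes 3A. The ranges overlapped, and the log2 difference was -0.22 (95% interval -0.70 to 0.25, edgeR adjusted p = 0.394).

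TEAD2 (chr19:49340595-49362457, minus strand) had 13 and 24 counts in 501Mel and 1015, 1166 and 795 counts in Hermes 3A. That is 0.302 and 0.634 CPM against 24.4, 28.5 and 26.4 CPM. This was the largest fitted difference among the members measured in both lines, -5.88 on the log2 scale (SE 0.371, 95% interval -6.76 to -5.01, edgeR adjusted p = 5.77e-05). It was called in every alternative fit, between -6.52 (without 501Mel replicate 2) and -5.42 (without 501Mel replicate 1), and CD37, whose exons overlap those of TEAD2 on the opposite strand, had 0 to 15 counts per library.

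TEAD3 (chr6:35473597-35497076, minus strand) had 21.6 and 14.6 CPM in 501Mel and 19.3, 28.9 and 30.3 CPM in Hermes 3A. The ranges overlapped through Hermes 3A replicate 1, and the log2 difference was -0.59 (95% interval -1.19 to 0.01, edgeR adjusted p = 0.0953). Without that library it was -0.77 and passed (edgeR adjusted p = 0.0269). TEAD4 (chr12:2959330-3040673, plus strand) had 24.8 and 11.1 CPM in 501Mel and 25.9, 18.1 and 18.4 CPM in Hermes 3A, and the difference of -0.29 did not pass (95% interval -1.14 to 0.56, edgeR adjusted p = 0.540).

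The makeup of the TEAD transcripts followed from these levels. Per kb of exon, TEAD1 made up 63.8% and 81.4% of the summed TEAD signal in 501Mel, and 64.5%, 58.9% and 59.9% in Hermes 3A. TEAD2 made up 0.203% and 0.400% in 501Mel, but 11.2%, 14.6% and 13.2% in Hermes 3A. The TEAD2 share was thus lower in both 501Mel libraries by 12.7 percentage points on average (0.301% ± 0.139 against 13.0% ± 1.69, SD, exact two-sided permutation p = 0.2, again the smallest possible, 0.5 after adjustment). Taking the median protein-coding transcript as the length made this difference 5.94 points in the same direction. TEAD3 averaged 11.6% and 12.7%, and TEAD4 15.5% and 13.3%, with ranges that overlapped between the lines. The summed level of the 4 genes was 49.9 and 53.2 CPM per kb in 501Mel and 65.7 to 73.0 CPM per kb in Hermes 3A.

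CTGF (chr6:131948176-131951373 on GRCh38, minus strand), a CCN gene and a standard readout of YAP and TEAD, had 3862 and 2157 counts in 501Mel and 924, 262 and 127 in Hermes 3A. That is 89.7 and 57.0 CPM against 22.2, 6.41 and 4.22 CPM. All libraries of 501Mel lay above all of Hermes 3A, and within Hermes 3A replicate 1 lay well above the others. The log2 difference was 2.65 (SE 0.660, 95% interval 1.09 to 4.20, edgeR adjusted p = 0.0141), and without 501Mel replicate 1 it was 2.30 with an edgeR adjusted p of 0.0695. Without Hermes 3A replicate 1 it was 3.73 (edgeR adjusted p = 0.00036). An antisense gene, AL133346.1, overlaps CTGF exons and had 4 to 17 counts per library.

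CYR61 (chr1:85580761-85583962, plus strand), the other CCN gene used as a YAP readout, had 86.6 and 66.9 CPM in 501Mel and 137, 28.6 and 22.9 CPM in Hermes 3A. The 501Mel libraries thus fell between Hermes 3A replicate 1 and the other libraries of Hermes 3A. The log2 difference was 0.19 and its interval was wide (95% interval -1.53 to 1.91, edgeR adjusted p = 0.847). This value rested on Hermes 3A replicate 1, without which the difference was 1.52 (edgeR adjusted p = 0.00118). Without Hermes 3A replicate 2 or 3 it was -0.23 or -0.27.

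NOV had 745 and 940 counts in 501Mel and 8204, 7452 and 4766 in Hermes 3A, or 17.3 and 24.8 CPM against 197, 182 and 158 CPM. The libraries of Hermes 3A, replicate 1 included, were close to each other and all lay above 501Mel. The log2 difference was -3.15 (SE 0.230, 95% interval -3.69 to -2.61, edgeR adjusted p = 0.000104), and it was called in every alternative fit, between -3.47 and -2.91.

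The CCN genes therefore divided their summed signal differently. In 501Mel, CTGF made up 47.9% and 40.0% of the CPM per kb of CTGF, CYR61 and NOV together, CYR61 44.0% and 44.8%, and NOV 8.08% and 15.3%. In Hermes 3A, NOV made up 53.1%, 82.6% and 84.2%, and CTGF 6.83%, 3.32% and 2.56%. CYR61 took 40.1% in Hermes 3A replicate 1 but 14.1% and 13.2% in the others. The remaining CCN genes were near the limit of detection. WISP1, WISP2 and WISP3 (CCN4, CCN5 and CCN6) had at most 1.10 CPM in any library, and WISP1 was not tested because of low counts. WISP2 had 13 and 16 counts in 501Mel and 41, 45 and 18 in Hermes 3A, with a log2 difference of -1.37 (unadjusted p = 0.0285, edgeR adjusted p = 0.0572), which DESeq2 called (adjusted p = 0.0487). WISP3, with 5 to 13 counts per library, was called by neither (log2 difference 0.60, edgeR adjusted p = 0.380).

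ANKRD1 (chr10:90912096-90921276, minus strand), a cardiac ankyrin-repeat protein gene that is also a YAP target, had 380 and 46 counts in 501Mel, or 8.83 and 1.22 CPM. It had 0 counts in all 3 Hermes 3A libraries, which allows up to 0.0720 to 0.0998 CPM by counting error alone. Against that limit (3 counts per library, taken at 0.0998 CPM), the 501Mel mean of 5.02 CPM was at least 50.4-fold higher, and the lower 501Mel library at least 12.2-fold higher. Since it passed the filter through 501Mel alone, its call is given as a description only. The 2 libraries of 501Mel differed from each other more for ANKRD1 than for any other member.

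**Figure D2:**
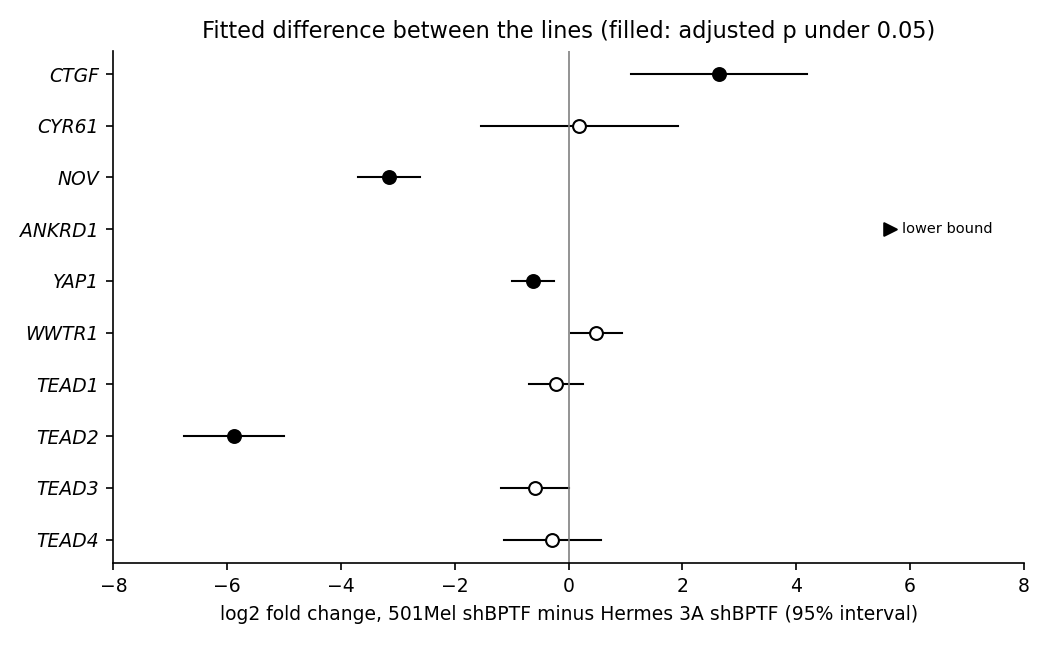
Fitted log2 fold change of each gene, 501Mel shBPTF minus Hermes 3A shBPTF, with its 95% interval. Filled circles passed an edgeR adjusted p of 0.05. ANKRD1 had 0 counts in Hermes 3A and is drawn as a triangle at its lower bound of 50.4-fold. TEAD2 lies furthest to the left at -5.88, and the interval of CYR61 spans 0 widely.

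Within a line, the members were ordered by CPM per kb of exon. In 501Mel the order began with TEAD1 (37.6 ± 8.14, SD), CTGF (31.4 ± 9.91), CYR61 (31.3 ± 5.67), WWTR1 (23.0 ± 6.26) and YAP1 (22.0 ± 1.99), in which no neighbours were separated beyond their ranges. TEAD4 (7.90), NOV (7.88) and TEAD3 (5.94) followed as a group set apart from YAP1, and then ANKRD1 (2.54 ± 2.72) and TEAD2 (0.157 ± 0.0787), each separated from its neighbour. In Hermes 3A, NOV came first (67.1 ± 7.27), apart from TEAD1 (42.0 ± 4.49), which was apart from YAP1 (32.6 ± 2.46). YAP1, CYR61 (25.6 ± 26.1) and WWTR1 (15.6 ± 1.77) were joined by the wide range of CYR61. TEAD4, TEAD2, TEAD3 and CTGF lay between 9.16 and 4.68 with overlapping neighbours, and ANKRD1 was at 0. CTGF was thus second of the 10 in 501Mel and ninth in Hermes 3A, and NOV seventh and first. These ranks depend on the length used, since with the median protein-coding transcript WWTR1 came first in both lines (234 and 159 CPM per kb). By that length CTGF had rank 5 in 501Mel and rank 9 in Hermes 3A, and NOV rank 7 and rank 4.

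The upstream Hippo genes were described by a list of 24 kinases and scaffolds, all tested. Of these, 5 were called higher in 501Mel, 5 lower and 14 were not called, with a median log2 difference of 0.02, the same as over all genes, of which 24.2% were called higher and 24.0% lower. WWC1, which encodes the scaffold KIBRA that activates LATS kinases, had 50.8 and 37.4 CPM in 501Mel against 7.75, 2.20 and 2.39 CPM in Hermes 3A (log2 difference 3.32, edgeR adjusted p = 0.00302). Hermes 3A replicate 1 was the highest of its line for WWC1, as it was for CTGF and CYR61, and without it the difference in WWC1 was 4.21. FAT4, an atypical cadherin, averaged 11.8 CPM in 501Mel and 1.83 CPM in Hermes 3A (log2 difference 2.61, edgeR adjusted p = 0.00175). DCHS1, the cadherin that binds it, was low in both lines, at 0.391 and 2.20 CPM, with 12 and 20 counts in 501Mel. Its log2 difference was -2.55 (edgeR adjusted p = 0.00328). Of the kinases, STK4 (MST1) was higher by 0.87, and TAOK1, which activates MST kinases, and LATS2, which phosphorylates YAP, had differences of -1.94 and -1.17 (edgeR adjusted p = 0.00512, 0.000417 and 0.00407).

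Of 16 genes for YAP/TAZ-binding proteins and TEAD cofactors, 14 were tested, of which 2 were called higher, 6 lower and 6 not called (median -0.19), beside 24.2% higher and 24.0% lower over all genes tested. TP73, a p53-family factor that binds YAP, had 10.9 and 6.58 CPM in 501Mel and between 0.367 and 0.499 CPM in Hermes 3A (log2 difference 4.21, edgeR adjusted p = 0.000267). The RUNX factors, which also bind YAP and TAZ, went in opposite directions. RUNX2 was at 17.4 and 16.8 CPM in 501Mel and 2.06 to 4.54 CPM in Hermes 3A, whereas RUNX1 was at 15.5 and 13.1 CPM in 501Mel and 99.5 to 168 CPM in Hermes 3A. Their log2 differences were 2.46 and -3.32 (edgeR adjusted p = 0.00265 and 9.62e-05). WTIP, an Ajuba-family LIM protein gene, had 4.53 and 4.31 CPM in 501Mel against 46.2 to 54.4 CPM in Hermes 3A (log2 difference -3.54, edgeR adjusted p = 3.33e-05). The angiomotin gene AMOTL2 was lower in 501Mel by 1.50 on the log2 scale (edgeR adjusted p = 0.00105).

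A list of 19 other YAP/TEAD target genes held more genes called lower than higher in 501Mel. Like the other lists, it was chosen with earlier results of these data known, so that its counts are a description only. All 19 were tested, of which 1 was called higher in 501Mel, 12 lower and 6 not called, with a median log2 difference of -1.45, beside 24.2% higher and 24.0% lower over all genes. The 12 include NT5E and IGFBP3, which had under 10 counts in every 501Mel library and passed the filter through Hermes 3A alone, and without them 10 of 17 were lower. RBMS3, an RNA-binding protein gene, was the one called higher (7.72 and 5.60 CPM against 1.76 to 2.06 CPM, log2 difference 1.70, edgeR adjusted p = 0.00460). NT5E, which encodes the ecto-nucleotidase CD73, had 1 and 0 counts in 501Mel and 5220, 1983 and 1158 counts in Hermes 3A. IGFBP3, a binding protein of insulin-like growth factors, had 0 counts in both 501Mel libraries and 100, 247 and 166 in Hermes 3A, so that it was at least 58.7-fold lower against a limit of 3 counts per library. MYOF, which encodes the membrane-repair protein myoferlin, had 92.5 and 13.0 CPM in 501Mel and 605 to 1297 CPM in Hermes 3A (log2 difference -4.19, edgeR adjusted p = 0.00629), and its difference was -6.18 without 501Mel replicate 1 and -3.40 without 501Mel replicate 2. AMOTL2 and LATS2, named above, belong to this list as well. So does PTPN14 of the binding proteins and cofactors, given for this overlap (log2 difference -1.32, edgeR adjusted p = 0.0228). All 3 were called lower and are counted in both of their lists. RefSeq windows were found for 14 of these genes, 7 of which held GGAATG or CATTCC, and only NUAK2 held more than 1 match. The 14 genes had 16 windows, and a gene was counted if any of its windows matched. The share of all genes counted in this way was not taken, and the 14.0% given above is per window. Of 7 fibroblast markers tested, none was called higher in 501Mel. COL1A2, FBLN1 and TWIST2 were called lower in 501Mel (COL1A2 and TWIST2 passed the filter through Hermes 3A alone), and 4 were not called. Of these, COL1A1, COL3A1 and LUM had log2 differences of 2.35, 2.31 and 0.65 (edgeR adjusted p = 0.0506, 0.168 and 0.604). COL3A1 passed the filter through 501Mel alone, and COL1A1 and LUM were higher in 501Mel replicate 1 than in replicate 2. Summed fibroblast markers were at 24.3 and 5.47 CPM in 501Mel and at 135 to 252 CPM in Hermes 3A. KRT10 and TP63, the 2 keratinocyte markers tested, were called lower, TP63 having passed through Hermes 3A alone. The part of other cell types in the target-gene values was not tested.

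Of 13 genes for CCN receptors and coreceptors, 12 were tested, of which none was called higher in 501Mel, 5 were lower and 7 were not called by edgeR (median -0.47), beside 24.2% higher and 24.0% lower over all genes tested. One of the 5, ITGB3, passed the filter through Hermes 3A alone, and without it 4 of 11 were lower. None was higher at an unadjusted p under 0.05 or by DESeq2 either, and both gave 5 lower. ITGA5, the alpha subunit of the fibronectin receptor, had 3.72 and 0.343 CPM in 501Mel and 245 to 309 CPM in Hermes 3A (log2 difference -7.10, edgeR adjusted p = 0.00071), and its difference was -9.65 without 501Mel replicate 1 and -6.27 without 501Mel replicate 2. ITGB3, the beta subunit of the vitronectin receptor, had 2 and 0 counts in 501Mel and 704, 365 and 188 counts in Hermes 3A. LRP1, an endocytic receptor that binds CTGF, had 80.4 and 41.6 CPM in 501Mel and 341, 610 and 779 CPM in Hermes 3A (log2 difference -3.30, edgeR adjusted p = 0.000978).

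**Figure D3:**
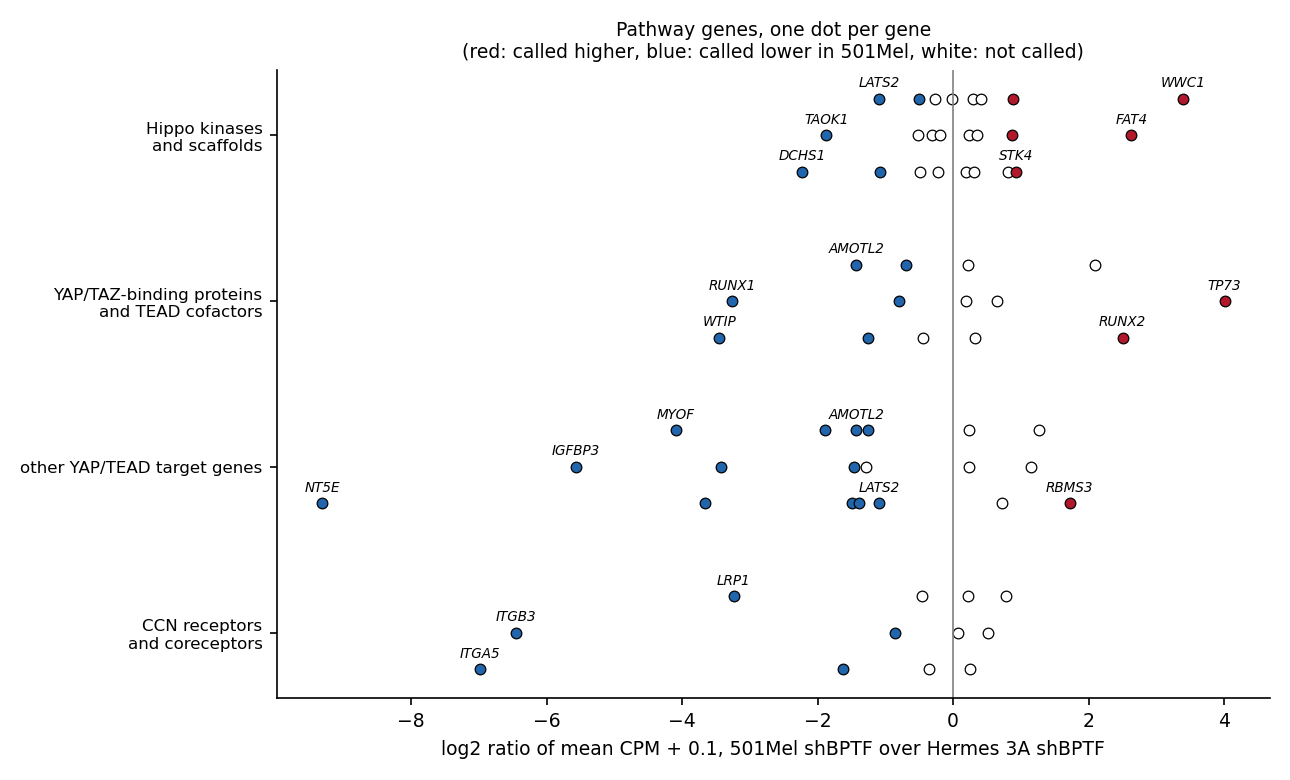
Log2 ratio of mean CPM + 0.1 between 501Mel shBPTF and Hermes 3A shBPTF for each tested gene of the pathway lists, with red dots called higher and blue dots called lower in 501Mel by edgeR. The 0.1 CPM added sets the positions of genes at or near 0 such as NT5E, IGFBP3 and ITGB3. Most dots of the other target genes, 12 of 19, are blue, and the Hippo kinases and scaffolds are divided, 5 red and 5 blue. The lists were chosen with earlier results of these data known.

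The replicates of one line differed in these genes as well. In 501Mel, 15 of the 16 other target genes with at least 10 counts in both libraries were higher in replicate 1 than in replicate 2, with a median of 0.54 on the scale of log2(CPM + 0.5), against 0.04 over 16096 genes. The excess passed 1 on this scale for 6 of the 16, beside 3.57% of all genes. The share of all genes that were higher in replicate 1 was not counted. CRIM1 had 9.30 and 0.634 CPM and CCDC80 3.46 and 0.343 CPM in replicates 1 and 2, both named after their values were seen. Among the members, 6 of 10 were higher in replicate 1, and ANKRD1 (2.44) and TEAD4 (1.12) passed 1. NOV, YAP1, TEAD1 and TEAD2 were lower in replicate 1. The 3 fibroblast markers with 10 counts in both libraries were also higher in replicate 1 (summed over the 8 listed, 24.3 against 5.47 CPM), and all 10 melanocyte markers were lower. Their part in the difference was not tested.

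In Hermes 3A, the difference between replicate 1 and the mean of replicates 2 and 3 passed 1 for CYR61 (2.39) and CTGF (1.99) alone among the 9 members with 10 counts in every library, beside 2.33% of all genes. The other members lay between -0.61 and 0.50. Of the 19 other target genes, 11 were higher in replicate 1, with a median of 0.10 against -0.06 over 14963 genes. NT5E, CRIM1 and F3 passed 1, beside 2.33% of all genes, while IGFBP3 and CCDC80 were below -1, beside 4.72%. The share of all genes that were higher in replicate 1 was again not counted. Summed fibroblast markers were at 135 CPM in replicate 1 and at 229 and 252 CPM in the others. COL1A2, which averaged 146 CPM in this line, was lower in replicate 1 (-1.40), as was COL1A1 (-0.40). Of the 5 fibroblast markers with 10 counts in every library, 3 were higher in replicate 1 (LUM 2.35, TWIST2 0.30 and FBLN1 0.07). The part of these markers was not tested.

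**Figure D4:**
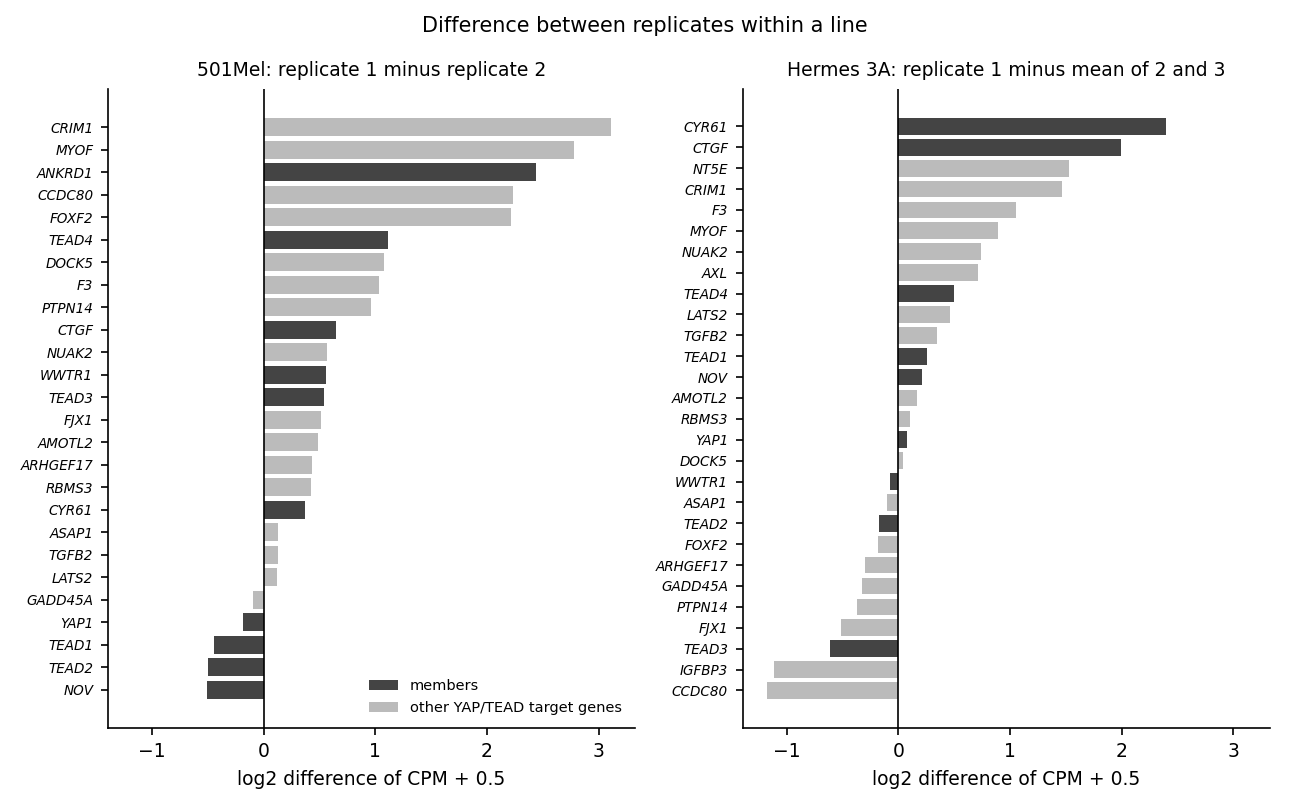
Difference of log2(CPM + 0.5) between replicate 1 and the other library or libraries of the same line, for members (dark bars) and other YAP/TEAD target genes (light bars) with at least 10 counts in every library of that line. In 501Mel all but 5 bars point to replicate 1, led by CRIM1, MYOF and ANKRD1, and in Hermes 3A CYR61 and CTGF have the longest bars.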

How the data were processed

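Raw read counts per Ensembl gene, whole numbers without normalization, were deposited by the authors for each library. RNA had been depleted of ribosomal RNA and the cDNA normalized with a duplex-specific nuclease, which removes abundant molecules and can narrow the range of high levels. The submitters' processing notes name hg19, CASAVA 1.8, TopHat 1.4.1 and Bowtie 0.12.7. The counting program, annotation and strand setting are not given in the sources used here. The files list 37259 genes for 501Mel and 34033 for Hermes 3A, of which the 31029 listed for both were used.

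Lines were compared with edgeR 4.0.16 in R 4.3.3 (quasi-likelihood test, TMM, filterByExpr, no block), with Benjamini-Hochberg adjustment over all 17975 genes tested and a call at 0.05. Levels are CPM by the library total, and per kb of the union of GENCODE 29 exons for comparison between genes. Limits from counts cover counting error only. The intervals of the log2 differences come from the edgeR fit and also reflect the spread between libraries. Coordinates are from GENCODE 29 and RefSeq on GRCh38, not the build of the reads. Shares and ratios were tested with an exact permutation test in scipy 1.17.1. The fit was tested on simulated data with a dispersion of 0.05. Of 50 genes changed by -1 on the log2 scale 10 were called, and of 50 changed by 1, 18 were called. All 50 were called at -2 and all 50 at 2, and 3 unchanged genes were called. Differences of about 1 were thus often missed in the simulation. Only these few of its 17422 genes were changed, while 48.2% of the genes tested were called in the data. The simulated shares therefore do not carry over to the data, since the adjustment depends on how many genes differ. A gene not called may still differ. Members and lists (Hippo kinases and scaffolds, YAP/TAZ-binding proteins and TEAD cofactors, other YAP/TEAD target genes, CCN receptors, other CCN genes, and markers of melanocytes, fibroblasts and keratinocytes) were chosen with earlier results of these data known. Named from each list were up to 3 genes per direction with the largest called difference and at least 10 counts in every replicate of the higher line, and all genes of a list of 3. Alternatives were other scalings, no filter, DESeq2 1.42.0, a replicate block, a fold threshold, another gene length, each library left out and, chosen after seeing the data, genes listed for either line.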

Additional observations from a re-analysis of the deposited data

How the results depend on the processing

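Leaving out one library at a time moved the number of called members between 3 and 7 (1 to 3 higher in 501Mel and 2 to 4 lower). It moved the called genes of the pathway lists between 33 and 34 (6 to 10 higher, 24 to 27 lower) and of all genes between 6059 and 9282 (2864 to 4595 higher, 3195 to 4687 lower), and 501Mel replicate 1 set the lowest of the members and of all genes. NOV and TEAD2 were called in all 11 alternative fits, and CTGF and YAP1 in 10. Over the same omissions CYR61 ranged from -0.27 to 1.52 on the log2 scale and TEAD4 from -0.96 to 0.15. CYR61 turned to -0.23 and -0.27 without Hermes 3A replicate 2 and 3, and TEAD4 to 0.15 without 501Mel replicate 2. The cause was not tested. With a fold threshold of 1 on the log2 scale, 5 in place of 8 genes of the pathway lists were called higher. With the median protein-coding transcript as length, 6 in place of 3 of the 9 neighbour pairs in the order of 501Mel were apart, and the TEAD2 share differed by -5.94 in place of -12.7 percentage points.

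Replicates 1 and 2 carry the same numbers in both lines, but nothing in the labels ties them, and the deviations of same-numbered libraries correlated at 0.133 over 13823 genes. With the replicate number as a block, 7461 in place of 8669 genes were called, and WWTR1 passed (0.56, edgeR adjusted p = 0.0470). Depth limits ANKRD1, NT5E, IGFBP3 and ITGB3, which were at or near 0 counts in one line.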
